A study of Drosophila melanogaster with 4 samples.

Results

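The larval cuticle protein (Lcp) genes were followed here as a family of 10 named genes, chosen by symbol: *Lcp1*, *Lcp2*, *Lcp3* and *Lcp4*, which lie together at 44D, and *Lcp65Ab1*, *Lcp65Ac*, *Lcp65Ad*, *Lcp65Ae*, *Lcp65Af* and *Lcp65Ag1*, which lie in a cluster at 65A. A gene entered where a probe of the array carried its symbol alone, updated through RefSeq. This held for 5 of the 10, *Lcp65Ac*, *Lcp65Ad*, *Lcp65Ae*, *Lcp65Af* and *Lcp65Ag1*, among 11908 genes and 14569 probes in all. *Lcp1* to *Lcp4* and *Lcp65Ab1* had no named probe and were not analysed here. Each of the 5 had 1 probe, and no filter on low values was applied.

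The arrays compared *poly* mutant larvae with wild-type larvae of *Drosophila melanogaster*, with RNA of whole animals of both genotypes on each of 4 arrays, 1 for each biological replicate. The mutant carried the P-element allele poly05137, from a stock kept over the balancer TM6B, and wild-type larvae were of the strain Canton S, also given as the genetic background of the mutant. Both were untreated and were collected early in the third larval instar after feeding on yeast paste. Small batches of larvae were moved to the yeast vials in the second instar. How many of them went into each RNA sample, and whether homozygous mutants were picked, is not stated for these arrays in the sources read here. RNA of *poly* was labelled with Cy5 on replicates 1 and 2 and with Cy3 on replicates 3 and 4, so a dye effect of one size cancels in the mean of the 4 arrays. Each value below is a log2 ratio, *poly* over wild-type, so that −1 stands for a level reduced to 0.5 of the wild-type level.

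The larval cuticle is the outer covering of the animal. It is secreted by the epidermis as layers of chitin fibres held in a matrix of proteins, and it is made anew at each moult and added to between moults. Many of the matrix proteins, those of the Lcp genes included, carry the Rebers–Riddiford sequence, through which cuticle proteins bind chitin. The genes are short, lie in clusters that arose by duplication, and are expressed at particular stages, with separate sets for larval, pupal and adult cuticle. Because the RNA came from whole larvae, fewer epidermal cells and less RNA per cell cannot be told apart in any of these ratios.

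Transcripts of 4 of the 5 measured Lcp genes fell in *poly* mutants. *Lcp65Ad*, with a mean ratio nearer 0 and a wider spread than the others, did not pass the test. The largest falls were those of *Lcp65Af*, 11.1-fold, and *Lcp65Ae*, 6.86-fold. *Lcp65Ag1* fell 3.87-fold and *Lcp65Ac* 3.46-fold. Over all genes, 149 of 11908 were called lower, or 1.25%, and 169 were called higher, or 1.42%. A call was an adjusted p under 0.05 from limma, with Benjamini–Hochberg adjustment over all probes. The median ratio over the 5 genes was −1.95, against 0.04 over all genes. Without replicate 1, 2 or 4, no gene on the array passed the adjusted threshold and the count of Lcp genes called was 0. In those fits 1529, 1478 and 1906 probes had an unadjusted p under 0.05. Without replicate 3 the count was again 4.

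*Lcp65Af* had log2 ratios of −3.09, −3.15, −4.10 and −3.56 on replicates 1 to 4. The mean was −3.48 ± 0.47 (SD over 4 arrays, n = 4 biological replicates, 95% interval −4.00 to −2.95, adjusted p = 0.0106 from limma). It was the most reduced Lcp gene on each of the 4 arrays, and only 2 of the 14569 probes had a lower mean. *Lcp65Ae*, its direct neighbour in the cluster, had log2 ratios of −2.70, −2.83, −2.92 and −2.66, a mean of −2.78 ± 0.12 (95% interval −3.05 to −2.51, adjusted p = 0.00863 from limma). Its spread between arrays was small, with an SD below the median of 0.301 over all genes, although its mean was the eighth lowest of all probes. These 2 calls held with a term for the dye, with other scalings of the arrays and against a minimum log2 ratio of 0.5.

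*Lcp65Ag1* had log2 ratios of −1.75, −1.40, −2.91 and −1.75, a mean of −1.95 ± 0.66 (SD, n = 4, 95% interval −2.66 to −1.25, adjusted p = 0.0437 from limma). Replicate 3 lay below the other arrays, and the call stood close to the threshold. It was lost with a dye term (adjusted p = 0.0608), with median centring (adjusted p = 0.0574) and with a robust prior (adjusted p = 0.0515). *Lcp65Ac* had log2 ratios of −1.61, −1.27, −2.40 and −1.88, a mean of −1.79 ± 0.48 (95% interval −2.33 to −1.25, adjusted p = 0.0301 from limma). Here too replicate 3 was lowest and replicate 2 highest. Both genes kept their direction on all 4 arrays.

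*Lcp65Ad* stood apart from the others. Its log2 ratios were −0.08, −0.72, 0.16 and −1.89, a mean of −0.63 ± 0.92 (SD, n = 4, 95% interval −1.58 to 0.32, adjusted p = 0.527 from limma). On replicate 4 it was as low as *Lcp65Ac*, and on replicates 1 and 3 it lay near 0. The interval holds 0 and ends above the means of *Lcp65Ag1* and *Lcp65Ac*. Without replicate 4 its mean was −0.21, and without replicate 3 it was −0.89.

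**Figure D1:**
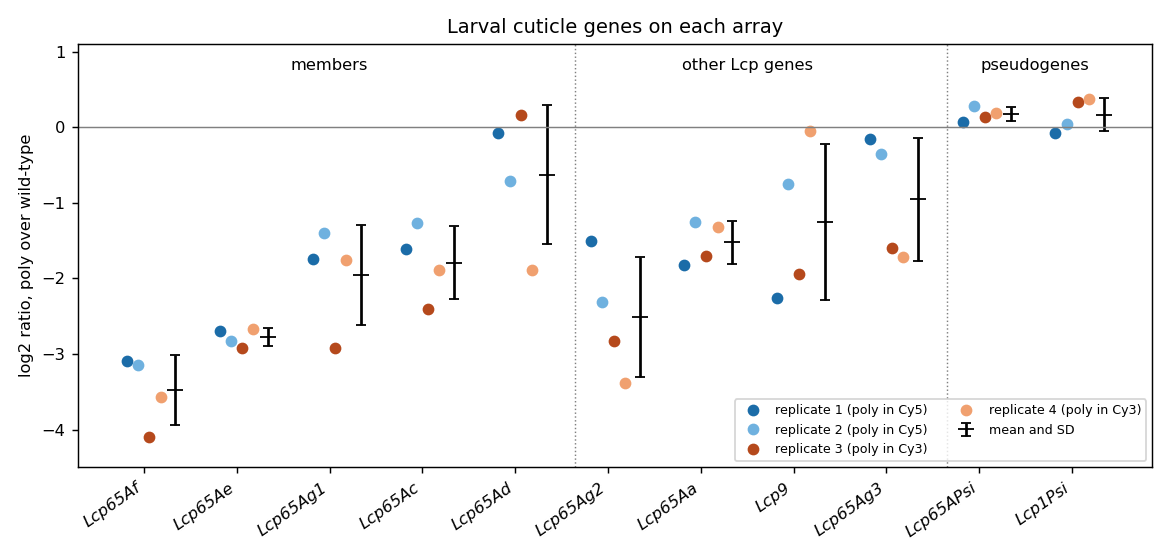
Log2 ratio of *poly* over wild-type (vertical axis) for the 5 measured Lcp genes, 4 other Lcp genes and 2 Lcp pseudogenes. Points are single arrays, coloured by replicate and dye orientation, and bars give the mean and SD of 4 arrays. All values of *Lcp65Af*, *Lcp65Ae*, *Lcp65Ag1* and *Lcp65Ac* lie below −1, those of *Lcp65Ad* run from −1.89 to 0.16, and the pseudogenes stay near 0.

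The order of the falls was compared within arrays, since all 5 ratios come from the same RNA. The genes were put in order by their means on these same arrays, so the counts of arrays lean towards that order. *Lcp65Af* was lower than *Lcp65Ae* on 4 of 4 arrays, by 0.70 ± 0.41 on the log2 scale (mean difference −0.70). *Lcp65Ae* was lower than *Lcp65Ag1* on 4 of 4 arrays, with a mean difference of −0.82 ± 0.60, but on replicate 3 the difference was only −0.006. *Lcp65Ag1* and *Lcp65Ac* did not differ beyond their spread (mean difference −0.16 ± 0.27, below 0 on 3 of 4 arrays). Between *Lcp65Ac* and *Lcp65Ad* the difference was −1.16 ± 1.13, and on replicate 4 it was 0.003. An exact two-sided sign-flip test on 4 arrays cannot give a p below 0.125, and no other test of the order was run, so these differences are given with their spread alone.

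Both dye orientations showed the 4 falls. With *poly* in Cy5 the means over 2 arrays were −3.12 for *Lcp65Af*, −2.76 for *Lcp65Ae*, −1.57 for *Lcp65Ag1* and −1.44 for *Lcp65Ac*. With *poly* in Cy3 they were −3.83, −2.79, −2.33 and −2.14, in the same order of genes. *Lcp65Ae* was nearly equal in both orientations, and the other genes were lower with Cy3. A call rests on the mean and spread of these same 4 arrays, so the shared sign within each orientation is no separate evidence.

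On each array the 2 most reduced genes lay in the extreme lower tail of all probes. *Lcp65Af* ranked 13th, 11th, 4th and 13th lowest of 14569 probes on replicates 1 to 4, and *Lcp65Ae* 22nd, 41st, 15th and 43rd. *Lcp65Ac* and *Lcp65Ag1* were less extreme on replicate 2, where 6.79% and 5.88% of probes were lower still. On the other arrays less than 1% of probes lay below either gene. *Lcp65Ad* had 40.3% of probes below it on replicate 1 and 51.7% on replicate 3, against 0.728% on replicate 4.

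**Figure D2:**
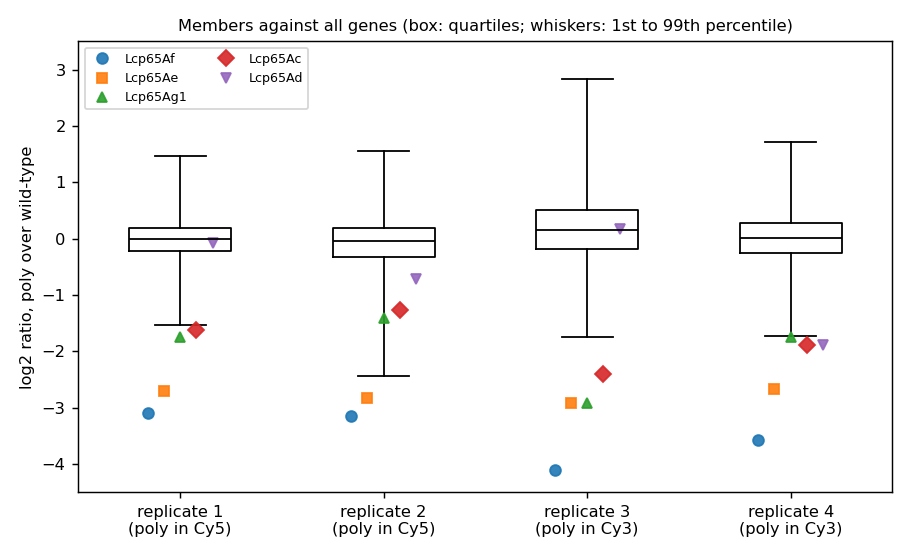
Log2 ratio of *poly* over wild-type (vertical axis) of the 5 Lcp genes on each array (symbols), over the distribution of 11908 genes (boxes show the median and quartiles, whiskers the central range that leaves 1% at each end). *Lcp65Af* and *Lcp65Ae* lie below the whisker on every array, and *Lcp65Ad* lies inside the box on replicates 1 and 3.

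The arrays themselves differed in ways that touch these values. The median ratio over all probes was between −0.04 and 0.15, and the spread was widest on replicate 3, where *Lcp65Af*, *Lcp65Ae*, *Lcp65Ag1* and *Lcp65Ac* had their lowest ratios (median absolute deviation 0.350, against 0.200 to 0.257 on the others). The ratios of any 2 arrays, taken over the probes as a description, had a Pearson r between −0.183 and 0.619. Of the called genes 46.9% were lower, and 61.8% were lower once each array was centred and scaled to 1 spread. The transcript of *poly* itself, listed under its current symbol *Elp6*, was lower on each array, with a mean of −1.63 ± 0.13 (SD, n = 4, adjusted p = 0.0109 from limma).

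Other Lcp genes with a named probe were compared as close relatives outside the chosen 10. Of 4 such genes, 2 fell and 2 did not pass. *Lcp65Ag2* had log2 ratios of −1.51, −2.32, −2.83 and −3.38, a mean of −2.51 ± 0.80 (SD, n = 4, adjusted p = 0.0353 from limma), and *Lcp65Aa* a mean of −1.52 ± 0.28 (adjusted p = 0.0205). *Lcp65Aa* missed the threshold with a dye term (adjusted p = 0.0512) and *Lcp65Ag2* without replicate 3 (adjusted p = 0.0628).

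*Lcp65Ag3*, a copy of the same subgroup as *Lcp65Ag1*, had −0.16 and −0.36 with *poly* in Cy5 and −1.59 and −1.72 with *poly* in Cy3 (mean −0.96 ± 0.81, adjusted p = 0.252). With so few arrays in each orientation such a gap can often arise without a dye effect, and its share over all genes was not counted. *Lcp9*, which lies away from both clusters, had −2.25, −0.75, −1.94 and −0.05 (mean −1.25 ± 1.03, adjusted p = 0.230).

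RefSeq lists the older name Lcp8 for both *Lcp65Ag1* and *Lcp65Ag2*. Probes of near-identical copies can pick up each other's transcripts, so the values of *Lcp65Ag1*, *Lcp65Ag2* and *Lcp65Ag3* are uncertain as values of single genes. Their 3 probes did not give 1 value, with means of −1.95, −2.51 and −0.96. How far they share signal was not tested. Probes for pseudogenes, which make no cuticle protein, stayed near 0. With no intensities used, such ratios may come from probes at background in both genotypes. *Lcp65APsi*, inside the 65A cluster, had log2 ratios of 0.07, 0.28, 0.14 and 0.19, and *Lcp1Psi*, between the genes of the 44D cluster, had −0.07, 0.04, 0.33 and 0.37.

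Along chromosome arm 3L, 5 of the 7 genes called lower at 65A lay next to each other. In RefSeq order these are *Lcp65Ag2*, *Lcp65Ag1*, *Lcp65Af*, *Lcp65Ae* and *Cpr65Av*. The other 2, *Lcp65Ac* and *Lcp65Aa*, lay farther along. *Cpr65Aw* and *Lcp65Ad*, which did not pass, separate *Lcp65Ac* from the row, and genes that did not pass or had no named probe separate *Lcp65Aa* from *Lcp65Ac*. With a dye term *Lcp65Ag1* missed the threshold, which breaks the row. Against a minimum log2 ratio of 0.5 only *Lcp65Af* and *Lcp65Ae* of the row were called. *Cpr65Av*, another cuticle gene with the Rebers–Riddiford sequence, had log2 ratios of −2.17, −2.20, −2.03 and −3.20 (mean −2.40 ± 0.54, SD, n = 4, adjusted p = 0.0205 from limma). The next gene, *Cpr65Aw*, had a mean of −1.98 ± 0.85 that did not pass (adjusted p = 0.0656), with −3.25 on replicate 1 and between −1.58 and −1.52 on the others. It passed with array weights (adjusted p = 0.0291).

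The row did not extend to every cuticle gene of the cluster. *Cpr65Au*, which sits between *Lcp65Ag3* and *Lcp65Ag2*, had a mean of −0.11 ± 0.20, and *Cpr65Ax2* had −0.34 ± 0.46. *Acp65Aa*, an adult cuticle gene next to *Lcp65Aa*, had −0.26 ± 0.26, and *Cpr65Az* ran from −2.10 to 1.97 across the arrays. None of these 4 passed the test, and whether their probes gave signal above background is unknown. Of the 10 measured cuticle genes and pseudogenes of the region outside the chosen family, 3 were called lower and none higher, with a median of −0.65.

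Genes of other kinds within 10 places of the Lcp genes at 65A did not pass. There were 7 of them, with means from −0.89 for *l(3)mbn* to 0.18 for *Ets65A* and a median of 0.02. At the shares over all genes, 1.25% lower and 1.42% higher, 7 genes can easily hold no call. *l(3)mbn*, the nearest measured gene beyond *Lcp65Ag3*, had −0.62, −0.45, −1.64 and −0.87 (adjusted p = 0.138). Around *Lcp1* to *Lcp4*, which were not measured, the 17 measured genes of other kinds had a median of 0.09. Of these the maltase *Mal-A2* fell (−0.89, adjusted p = 0.0329) and the maltase *Mal-A6* rose (2.38, adjusted p = 0.0205), and the remaining genes did not pass. *Mal-A2* missed the threshold once a dye term was added, and *Mal-A6* once arrays were centred and scaled.

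**Figure D3:**
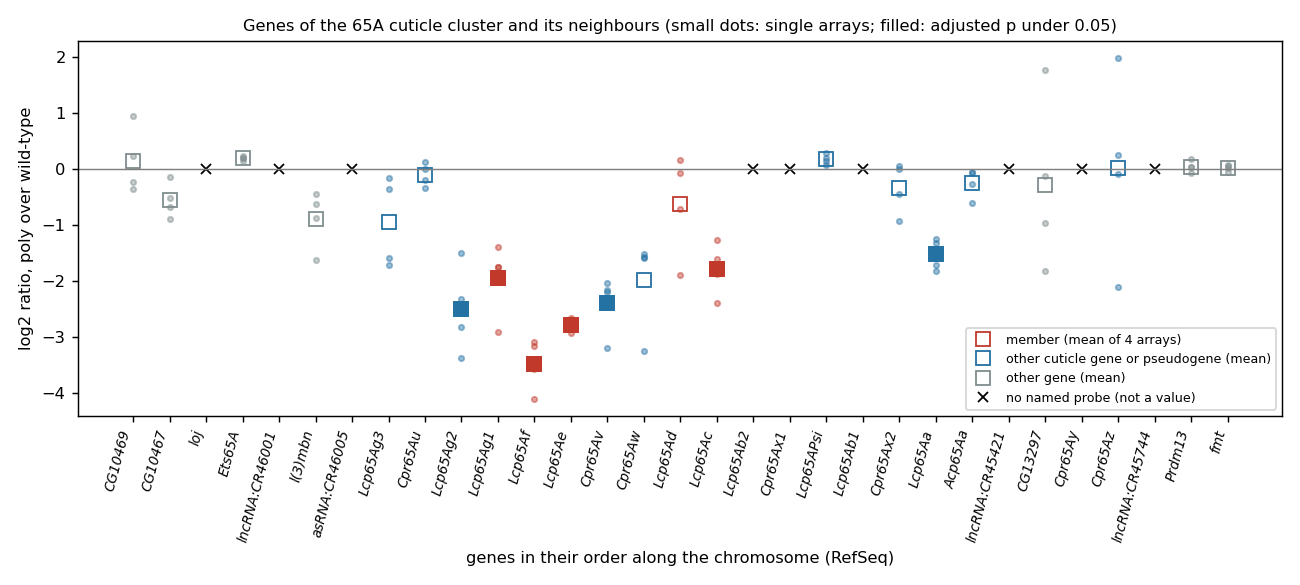
Log2 ratio of *poly* over wild-type (vertical axis) of genes in their RefSeq order along the 65A cluster and 10 places beyond it (horizontal axis, by gene). Dots are single arrays, squares are means of 4 arrays, filled squares passed at an adjusted p under 0.05, and crosses mark genes with no named probe. The filled squares from *Lcp65Ag2* to *Cpr65Av* stand in a row between −3.48 and −1.95, while genes of other kinds on both sides lie at −0.89 or above.

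The genes whose 4 ratios lay nearest to the median profile of the Lcp genes were found by Euclidean distance over the 4 arrays, among 11903 other genes. The profile was −1.75, −1.40, −2.91 and −1.89. The nearest 5 were *Cpr67Fa1* (distance 0.404), *Cpr67Fa2* (0.410), *Arc1* (0.423), *Cpr47Eg* (0.481) and CG13044 (0.487). Of these *Cpr67Fa1*, *Cpr67Fa2* and *Cpr47Eg* belong to the Cpr family of cuticle proteins, and *Arc1* encodes a capsid-forming protein known from neurons. They were picked for this likeness, so their ratios, with means from −2.08 to −1.80, are a description only.

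A further list held genes of pupal and adult cuticle, the Ccp84A cluster of cuticle genes and *Cpr72Ec*, and also *Acp76A*, which encodes an accessory gland protein and is no cuticle gene. Of 14 measured genes 2 fell and 12 did not pass, with a median of −0.33. Both genes that fell are of the Ccp84A cluster. *Ccp84Ab* had a mean of −1.26 ± 0.24 (adjusted p = 0.0256 from limma) and *Ccp84Aa* one of −0.75 ± 0.10 (adjusted p = 0.0403). The pupal genes *Pcp*, *Edg78E* and *Edg84A* had means of −0.68, −0.006 and −0.24, and whether their probes gave signal above background is unknown. The call of *Ccp84Aa* was lost with a dye term (adjusted p = 0.0608) and with centred and scaled arrays (adjusted p = 0.0613).

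Several genes of a list on chitin synthesis and modification also fell. With RNA of whole larvae, the tissue these transcripts came from is not known. Of 27 measured genes 6 fell, 1 rose and 20 did not pass, with a median of −0.62. *verm*, a chitin deacetylase, had a mean of −1.46 ± 0.09 (adjusted p = 0.0115 from limma) on 1 of its 2 probes, and averaging both gave −0.87 (adjusted p = 0.112). *Gasp* (−1.29 ± 0.11, adjusted p = 0.0160) and *obst-B* (−1.02 ± 0.19, adjusted p = 0.0303) encode chitin-binding proteins. *Gfat1*, the enzyme that opens the pathway to the chitin precursor, had −1.56 ± 0.39 (adjusted p = 0.0297), and its call was lost with a dye term and with centred and scaled arrays. The gene that rose was *Idgf1*, at 1.05 ± 0.22 (adjusted p = 0.0329), which encodes a secreted growth factor related to chitinases. That call was lost with a dye term. The chitin synthase *kkv*, singled out after its values were seen, had −0.58, −0.63, −0.64 and −0.62 and missed the threshold narrowly (adjusted p = 0.0505).

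Of 8 measured genes of cuticle tanning, *stw*, a laccase that cross-links cuticle proteins, fell to −1.06 ± 0.24 (adjusted p = 0.0338 from limma, 0.0533 with a dye term). The other 7 did not pass, among them the tyrosine hydroxylase gene *ple* (−0.22 ± 1.05) and *Ddc* (0.37 ± 1.46), which vary widely between arrays. None of 11 measured transcription factors of moulting and ecdysone response passed, with a median of −0.06. Over all genes 1.25% were called lower and 1.42% higher, so a list this short can easily hold no call. *EcR*, the ecdysone receptor, had a mean of 0.02 and *ftz-f1*, a nuclear receptor active around moults, one of −0.13. With array weights 2 of the 11 were called lower.

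Genes that mark the later part of the last larval stage varied widely between arrays. This list held 7 measured genes of salivary glue, larval serum and fat body, of which none passed, and few genes passed over all genes. Its median was −0.25, −0.12, 3.82 and 0.08 on replicates 1 to 4, where the Lcp median was −1.75, −1.40, −2.91 and −1.89. The glue genes *Sgs1*, *Sgs4* and *Sgs5*, named after their values were seen, stood at 3.27, 5.13 and 5.55 on replicate 3 and between −0.25 and 0.27 on the other arrays. Without replicate 3 the Lcp means were −3.27 for *Lcp65Af*, −2.73 for *Lcp65Ae*, −1.63 for *Lcp65Ag1* and −1.59 for *Lcp65Ac*. Other genes of the list were also high on replicates 2 and 4, so these means are not free of differences in stage genes. *Fbp2*, a fat body protein gene with the highest mean of the list at 2.52 (adjusted p = 0.169 from limma), had −0.13, 3.62, 3.19 and 3.43 on replicates 1 to 4. The serum protein gene *Lsp2* had −3.48, 1.53, 3.43 and 1.12. Both were lowest on replicate 1. The part of larval age in the Lcp ratios was not tested.

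**Figure D4:**
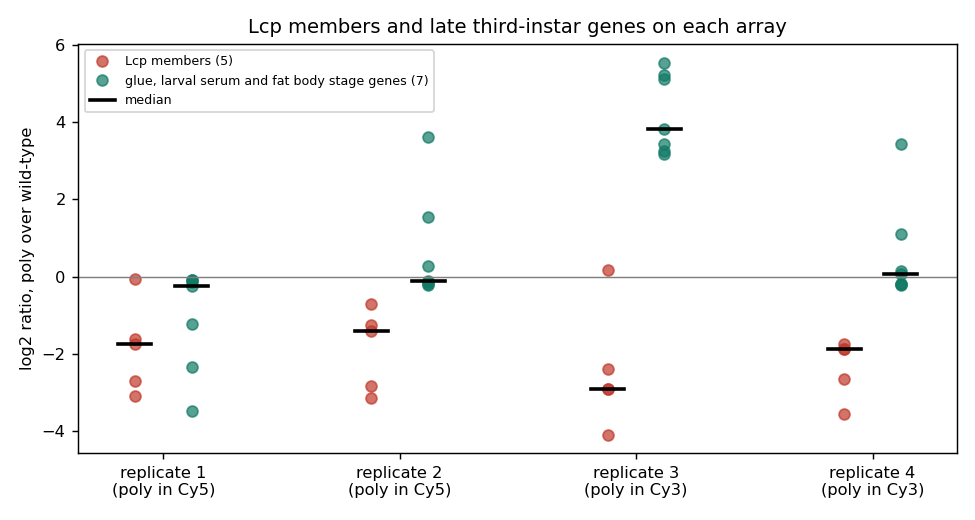
Log2 ratio of *poly* over wild-type (vertical axis) on each array (horizontal axis) for the 5 Lcp genes and for 7 genes of salivary glue, larval serum and fat body. Points are genes and bars are medians, which run from −2.91 to −1.40 for the Lcp genes and are near 0 for the other list except on replicate 3, where it is 3.82.

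A list of epidermal and other epithelial genes, with no cuticle gene among them, was read beside the Lcp genes. The epidermis is the tissue that secretes the cuticle, but not all genes of the list are particular to it. With 1.25% of all genes called lower and 1.42% higher, a list of this length can easily hold no call. None of 16 measured genes passed, with a median of −0.25. Their means ran from −0.60 for *grh*, an epidermal transcription factor, to 0.60 for *ImpL2*, which is not particular to the epidermis. The list's median was −0.19, −0.11, −0.09 and −0.21 on replicates 1 to 4. The means of the 4 Lcp genes that fell lay below the lowest mean of this list, but these genes were picked for their fall. The part of epidermal cell number in the Lcp ratios was not tested. With array weights 1 of the 16 was called higher.

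Markers of other tissues were also read beside the Lcp genes, where 1.25% of all genes were called lower and 1.42% higher. Of 15 gut genes 1 rose, the protease gene *Jon66Ci* (1.88 ± 0.35, adjusted p = 0.0178 from limma), with a list median of 0.35. Of 8 fat body genes 1 fell, the perilipin gene *Lsd-1* (−1.24 ± 0.31, adjusted p = 0.0332), with a list median of 0.55. This list shares *Lsp2*, *Fbp1* and *Fbp2* with the list of late larval genes above. Its median was −0.31, 0.36, 0.21 and 0.53 on replicates 1 to 4. None of 8 muscle genes passed (median −0.54). Of 9 haemocyte genes 1 rose, the phagocytic receptor gene *NimC1* (1.50 ± 0.52, adjusted p = 0.0492), with a list median of 0.01. The calls of *Jon66Ci* and *NimC1* were lost with centred and scaled arrays, that of *NimC1* also with a robust prior or median centring, and that of *Lsd-1* with a dye term. The files give ratios and no intensities, so whether each tissue's markers were present in both genotypes could not be checked. The part of tissue composition in the Lcp ratios was not tested.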

How the data were processed

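RNA from whole larvae was hybridized to 2-colour long-oligonucleotide arrays, on 4 arrays with 1 biological replicate of both genotypes each. The authors found and measured spots with Dapple and applied vsn normalization, and the deposited values are log2 ratios with no missing value. Background correction, spot filters and software versions are not stated in the sources read here. Every column was read as mutant over wild-type, as the sample titles name them. With no intensities used, signal over background is unknown, and precision is limited by the number of arrays. The labels do not say whether replicates came from separate cultures, so p-values measure the spread between these samples.

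Probe names came from the platform annotation in GEO. Symbols were brought up to date with RefSeq (GCF_000001215.4), which served for names and gene order only. A single symbol was found for 12658 probes, several for 96, and 1815 are unnamed here. The update used the gene identifier for 12012 probes and an accession for 107, while 539 stayed as annotated. Of 11908 genes 500 had several probes, for which values of the probe of smallest p are printed.

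Log2 ratios were tested against 0 in limma by lmFit and eBayes (two-sided, 4.97 degrees of freedom), with Benjamini–Hochberg adjustment over all probes. The fit was tested on simulated data. Alternatives were averaged probes, array weights, a dye term, centring, centring with scaling, a test against a minimum ratio of 0.5, a prior made robust, and each replicate left out. The genes, lists and tests were chosen with earlier results of these data known. Named were all measured Lcp genes, *Elp6*, up to 4 called genes of each list with the smallest p, called genes within 10 places of an Lcp gene, and the 5 nearest profiles. Further genes in the text were named after their values were seen. Planned comparisons of protein and promoter sequences were not made. The software was Python 3.11.15 (numpy 2.4.6, pandas 2.3.3, matplotlib 3.10.9) and R 4.3.3 with limma 3.58.1.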

Additional observations from a re-analysis of the deposited data

Results flagged for a closer look

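Of 165 measured genes of the lists and gene neighbourhoods, 10 had 1 array far from the other 3, where chance alone flags about 1 gene in 20. None of the 5 Lcp genes was among them. Both flagged genes of the 65A cluster lie beside an Lcp gene. *Cpr65Aw*, next to *Lcp65Ad*, had a log2 ratio of −3.25 on replicate 1, against −1.58 for the nearest of the others. *Cpr65Av*, next to *Lcp65Ae*, had −3.20 on replicate 4, against −2.20. The glue genes *Sgs1*, *Sgs4* and *Sgs5* had 3.27, 5.13 and 5.55 on replicate 3, against −0.19, 0.08 and 0.27 for the nearest of the others. *Fbp2* had −0.13 on replicate 1, against 3.19. The cuticle gene *Ccp84Ag* had −2.39 on replicate 4, against −1.13. Replicate 3 also stood apart for *apolpp* (−1.68, against −0.16), *srp* (0.32, against 0.03) and *ImpE3* (0.41, against 0.10).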

How the results depend on the processing

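None of the recomputed ratios changed its direction under these alternatives. A dye term, a robust prior and the test against a minimum ratio leave the ratio itself unchanged, so they could not turn it. The same holds for averaged probes where a gene has 1 probe. The calls of *Lcp65Af* and *Lcp65Ae* held under the 7 alternatives that keep all arrays, that of *Lcp65Ac* under 6 and that of *Lcp65Ag1* under 3, and *Lcp65Ad* passed under none. Against a minimum log2 ratio of 0.5, 2 Lcp genes were called, and *Lcp65Ac* (−1.79, adjusted p = 0.0998) and *Lcp65Ag1* (−1.95, adjusted p = 0.145) were lost. *Lcp65Ag1* was also lost with a dye term (−1.95) and a robust prior (−1.95), and with median centring (−1.98). With 1 replicate left out, between 0 and 4 Lcp genes were called, and the ratios ran from −3.60 to −3.27 for *Lcp65Af*, −2.82 to −2.73 for *Lcp65Ae*, −2.14 to −1.63 for *Lcp65Ag1*, −1.96 to −1.59 for *Lcp65Ac* and −0.89 to −0.21 for *Lcp65Ad*. Over all genes the lower and higher calls numbered 65 and 96 with a dye term, 639 and 623 with array weights, 19 and 37 against the minimum ratio, and 134 and 83 with centred and scaled arrays. With 1 replicate left out they numbered 0 to 151 and 0 to 216. The calls of chitin genes moved from 6 lower to 11 with array weights and to 1 against the minimum ratio. The causes were not tested. Array weights favoured replicates 1 and 2 (2.10 and 2.44, against 0.289 and 0.675), which share a dye orientation. The array is itself the pair of mutant and wild-type RNA, so no further block was fitted.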
